A study of Mus musculus with 7 samples.

Results

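C-type lectin receptors were described on 7 one-colour arrays of mouse dendritic cells that had been grown in culture from common myeloid progenitors. The members are the genes whose symbols start with Clec and a digit, together with Cd209a to Cd209g and Mgl2. The reference table lists 42 such genes. Probes of the arrays matched 38 of them, and 29 had a probe that was well above background on at least 3 of the 7 arrays and were tested, among 14552 genes tested in all. A further 9 were dim, and 4 (Clec7a, Clec2f, Clec2j and Cd209g) had no probe matched by accession and were not analysed here.

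The donors were C57BL/6 mice homozygous for a floxed Gata2 gene, Gata2(f/f), and donors of 1 group also carried ER-Cre, a Cre recombinase activated by tamoxifen. Which promoter drives it is not given. All donors received tamoxifen on several days between day 1 and day 10, and common myeloid progenitors (CD45.2+) were sorted on days 20 to 22. They were cultured with FLT3 ligand at 200 ng/ml on bone marrow feeder cells from SJL (CD45.1+) mice, and how the dendritic cells were parted from the feeders before RNA extraction is not given. The 3 arrays labelled knockout came from Gata2(f/f)/ER-Cre donors and the 4 control arrays from Gata2(f/f) donors without the Cre, and ages are not given. Nothing states that replicates came from separate animals or cultures, so p-values measure the spread between these arrays alone. In these bulk samples fewer cells of a type and less RNA per cell cannot be told apart.

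C-type lectin receptors carry a fold first known for binding sugars in the presence of calcium. On dendritic cells and macrophages they recognise glycans of microbes, dying cells and the body's own glycoproteins, and many take their ligand up for antigen presentation. Activating members pair with adaptor chains such as the Fc receptor gamma chain or DAP12, or carry their own tyrosine motif, and signal through the kinase Syk and the adaptor Card9. Inhibitory members recruit phosphatases instead.

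The probe for Gata2 read higher in the arrays labelled knockout (2.99 ± 0.06, SD, n = 3, against 0.17 ± 0.29, SD, n = 4, in log2 units; limma adjusted p = 0.000154), and whether it lies in the deleted part is not given, so it cannot settle the labels and directions are those of the arrays as labelled. All 10 genes of the list shared by conventional dendritic cells, with Itgax, Flt3, Zbtb46 and class II genes, were detected and none passed the test in limma (none at an unadjusted p under 0.05 either). Each group had its own row of the slide, so slide row, Cre and group cannot be told apart. Spots well above background made up 61.5% to 67.4% of the arrays labelled knockout and 54.1% to 56.9% of the controls. Signal is given as log2 of the processed intensity minus the array's 75th percentile, which lay between 2671 and 3825 intensity units.

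The members that passed the test were all lower. Among the 29 tested genes, 4 were lower in the arrays labelled knockout and none were higher (limma, Benjamini-Hochberg adjusted p under 0.05). The 4 were Clec10a, Clec4b2, Clec4d and Clec4a3. That is 13.8% of the tested members, where 1.38% of all tested genes were lower, 1.49% higher and 2.87% either. At an unadjusted p under 0.05, 11 members were lower and 1 was higher. The shares of all genes above are for the adjusted p. No share of all genes at the unadjusted threshold is given here, for this count or for those of the lists below. The 3 arrays labelled knockout lay wholly below the 4 controls for 11 of 29 members (37.9%), against 8.04% of all genes, and wholly above for Clec14a alone, against 5.78% of all genes. The median log2 fold change of the members was -0.25, against -0.05 over all genes, and 18 of 29 (62.1%) were negative, against 57.9% of all genes.

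**Figure D1:**
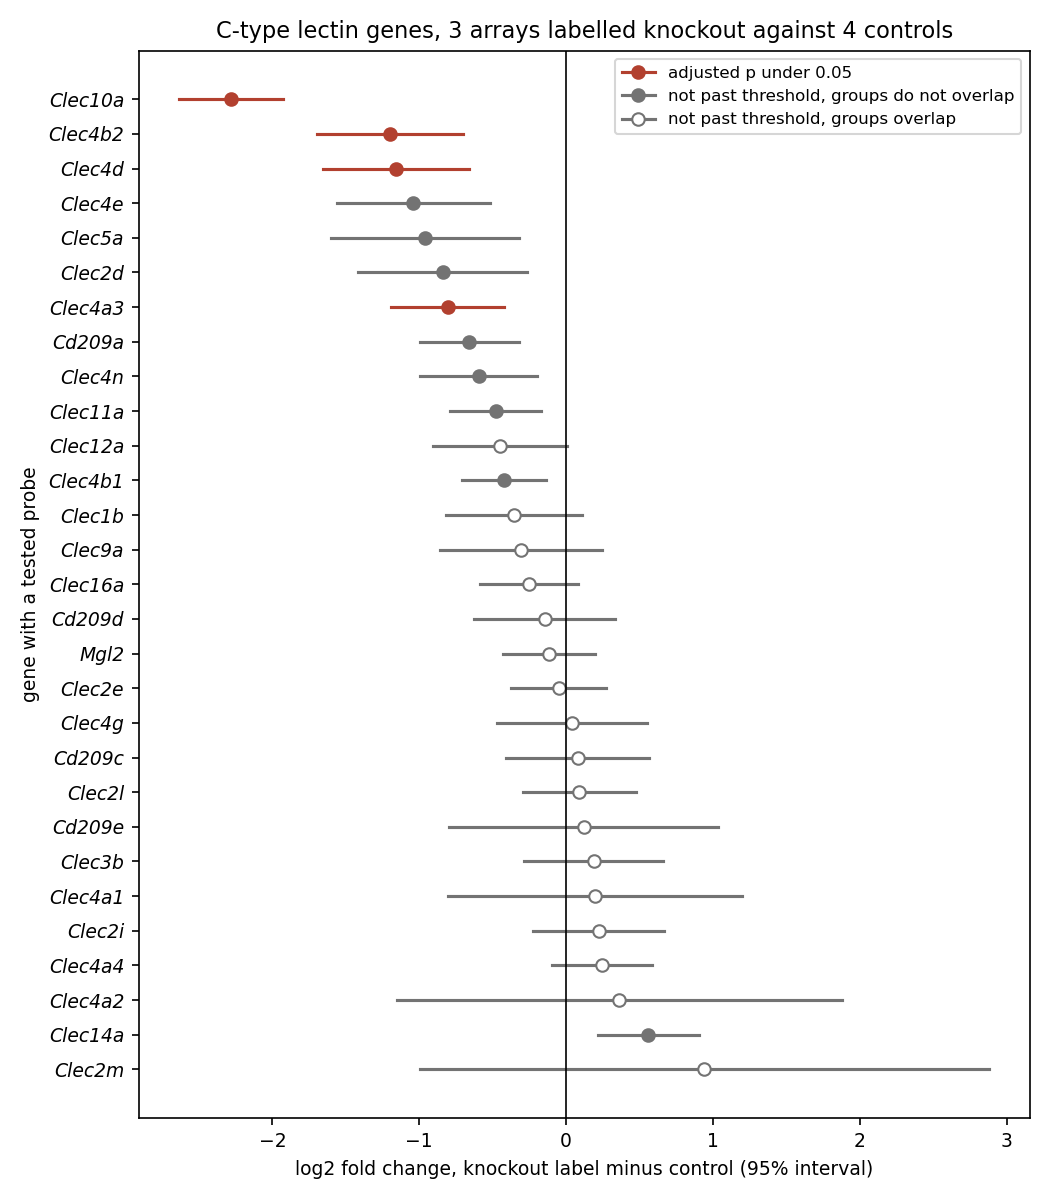
Log2 fold change of the 29 tested C-type lectin genes, arrays labelled knockout minus controls, as points with 95% intervals from the limma fit over all genes; filled points mark groups that do not overlap and red marks an adjusted p under 0.05. Clec10a stands furthest left at -2.28, and the intervals of Clec2m and Clec4a2 are the widest.

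The galactose-binding receptors gave the clearest contrast within the family. Clec10a, also called MGL1 or CD301a, binds terminal galactose and N-acetylgalactosamine and is known from macrophages and dendritic cells. It read 1.85, 1.49 and 1.84 on the arrays labelled knockout and 3.84, 4.20, 4.09 and 3.90 on the controls. The 3 arrays labelled knockout were close to each other and far below every control. The fall was 4.86-fold (-2.28 ± 0.15 in log2, estimate and SE; limma adjusted p = 0.000187). With each of the 7 arrays left out in turn the log2 fold change stayed between -2.34 and -2.17 and the adjusted p at or below 0.00148.

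Mgl2, which encodes MGL2 or CD301b, is the neighbouring gene and a close relative of Clec10a, and is widely used to mark a subset of dermal dendritic cells. It read 5.67, 5.73 and 5.45 on the arrays labelled knockout and 5.61, 5.75, 5.91 and 5.67 on the controls. The groups overlapped and the log2 fold change was -0.12 (95% interval -0.43 to 0.20, adjusted p = 0.776), and it turned slightly positive in 1 alternative. The log2 change of Clec10a was lower than that of Mgl2 by 2.17 (95% interval of the difference -2.60 to -1.73; two-sided exact permutation p = 0.0286, which is the lowest value possible with 35 splits of the arrays, and 0.0571 adjusted over 4 pairs of paralogs chosen after the values were seen). Whether a probe also reads a close copy was not tested.

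**Figure D2:**
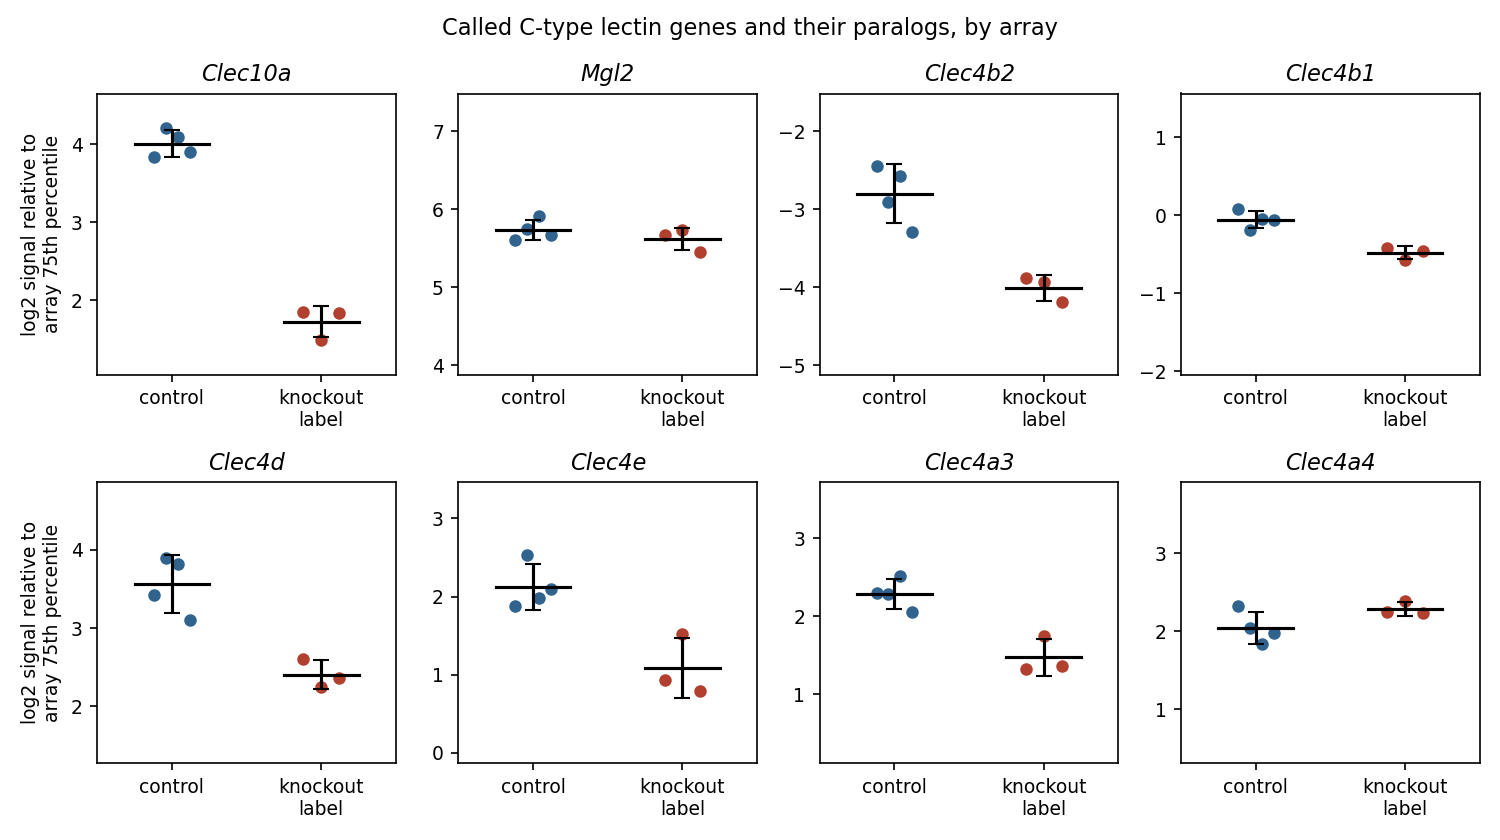
Log2 signal relative to the array's 75th percentile for the 4 called members and a paralog of each (Clec10a with Mgl2, Clec4b2 with Clec4b1, Clec4d with Clec4e, Clec4a3 with Clec4a4), 1 point an array, with the group mean and SD; each panel spans the same number of log2 units. Clec10a fell from a mean of 4.01 to 1.73 while Mgl2 stayed between 5.45 and 5.91 on all arrays.

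The Dectin-2 group holds activating receptors that signal through the Fc receptor gamma chain and lies in a block of Clec4 genes on chromosome 6. Of its 5 tested members 2 fell and none rose, where 1.38% of all genes fell. For all 5 the arrays labelled knockout lay below the controls (8.04% of all genes do), although a further tested probe of Clec4b1 gave overlapping groups. The median of the group was -1.04.

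Clec4d (MCL, or Dectin-3) and its neighbour Clec4e (Mincle) sense glycolipids such as the mycobacterial cord factor. Clec4d read 2.61, 2.24 and 2.36 on the arrays labelled knockout and 3.42, 3.90, 3.83 and 3.10 on the controls. The groups were apart, and the fall was 2.23-fold (-1.16 ± 0.22 in log2, estimate and SE; limma adjusted p = 0.0291). Clec4e read 0.94, 1.52 and 0.80 on the arrays labelled knockout and 1.87, 2.54, 1.98 and 2.10 on the controls. These groups were also apart, with a log2 fold change of -1.04 (SE 0.23, limma adjusted p = 0.0554) that missed the threshold. The changes of Clec4d and Clec4e, a pair also chosen after the values were seen, differed by -0.12 (95% interval -0.95 to 0.72; two-sided exact permutation p = 0.771).

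Clec4b2 (DCAR1) read -3.88, -3.93 and -4.19 on the arrays labelled knockout and -2.45, -2.91, -2.58 and -3.29 on the controls. Control replicate 4 was the dimmest control and still lay above the other group, and the fall was 2.29-fold (-1.20 ± 0.22 in log2, estimate and SE; limma adjusted p = 0.0248). Its paralog Clec4b1 (DCAR) had a log2 fold change of -0.42 (SE 0.12, limma adjusted p = 0.156) from -0.48 ± 0.08 (SD, n = 3) against -0.06 ± 0.11 (SD, n = 4), and its other probe gave -0.34 with overlapping groups. The change of Clec4b2 was lower than that of Clec4b1 by 0.78 (95% interval -1.34 to -0.22; two-sided exact permutation p = 0.0571, adjusted p = 0.0762). Because this pair was picked with its values known, the permutation p-value is descriptive only. Clec4n (Dectin-2), a receptor for fungal mannans, read 2.30, 2.41 and 2.35 on the arrays labelled knockout and 2.75, 3.36, 2.92 and 2.75 on the controls. Its log2 fold change of -0.59 (SE 0.17, limma adjusted p = 0.155) did not pass.

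The DCIR group, named after an inhibitory receptor of dendritic cells, shares the same block. Of its 4 tested members 1 fell, where 1.38% of all genes did. Clec4a3 (DCIR3) read 1.32, 1.75 and 1.36 on the arrays labelled knockout and 2.29, 2.28, 2.51 and 2.05 on the controls. The groups were apart, and the fall was 1.75-fold (-0.81 ± 0.17 in log2, estimate and SE; limma adjusted p = 0.0455). Clec4a4 (DCIR2), an inhibitory receptor of CD8-negative dendritic cells, lies next to it and read 2.24, 2.38 and 2.23 against 2.32, 2.03, 1.84 and 1.97 in the controls. Its groups overlapped (log2 fold change 0.24, 95% interval -0.09 to 0.58, limma adjusted p = 0.538). The change of Clec4a3 was lower than that of Clec4a4 by 1.05 (95% interval -1.56 to -0.54; two-sided exact permutation p = 0.0286, adjusted p = 0.0571). This pair was chosen after its values were seen, so the permutation p-value is descriptive only.

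Clec4a1 (DCIR4) and Clec4a2 (DCIR1) varied widely within groups. Clec4a1 read 2.47, 0.82 and 2.30 on the arrays labelled knockout and 1.37, 2.43, 1.59 and 1.28 on the controls. Replicate 2 labelled knockout was the lowest of its group and control replicate 2 the highest of the controls. Clec4a2, the inhibitory receptor that gave the group its name, read -3.97, -5.45 and -4.84 on the arrays labelled knockout and -4.55, -5.04, -3.98 and -6.88 on the controls, and 1 of the controls was not well above background. Neither passed (limma adjusted p = 0.899 and 0.863), and the intervals of their log2 fold changes, -0.81 to 1.20 and -1.15 to 1.88, leave changes of over 2-fold in reach. Along the block of 9 tested Clec4 genes the 3 called members were interspersed with uncalled ones, as the plot in gene order shows.

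**Figure D3:**
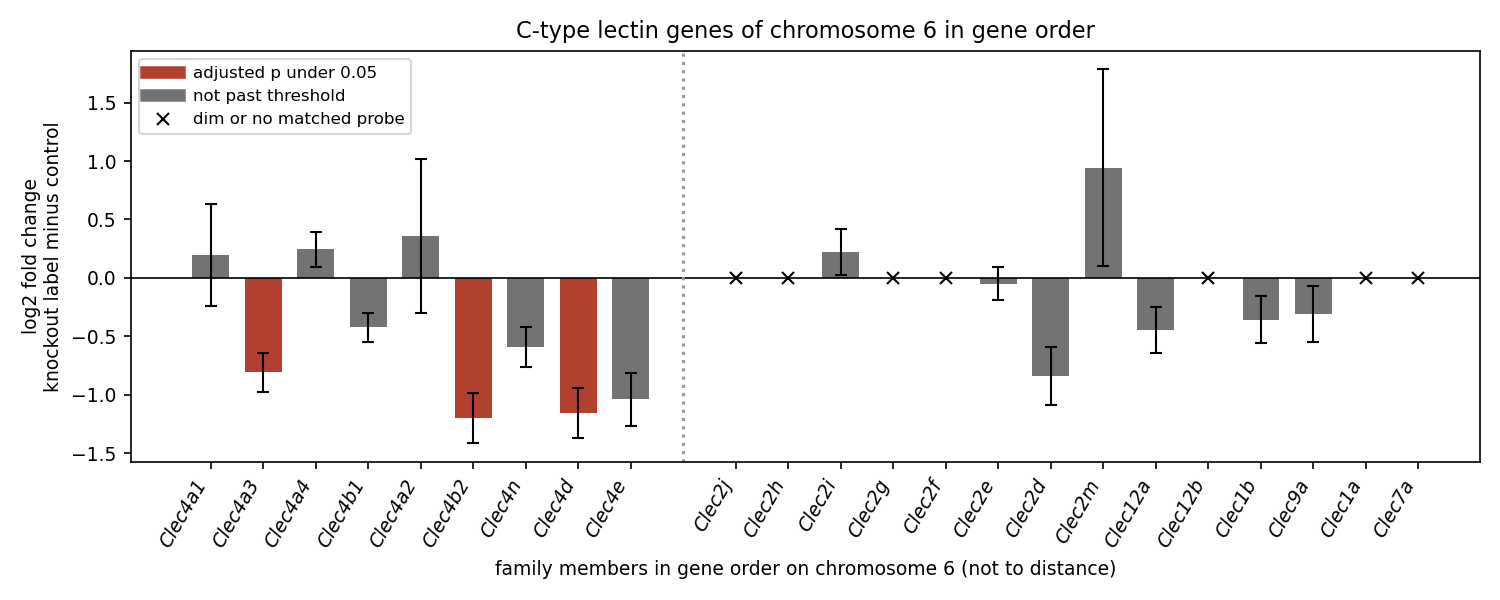
Log2 fold change (bars, with the standard error of the limma fit) of family members on chromosome 6 in the order of the RefSeq table, without distances; the dotted line parts the Clec4 block from the Clec2 to Clec7a stretch, and crosses mark genes that were dim or had no matched probe. In the Clec4 block Clec4a3, Clec4b2 and Clec4d were called, where 1.38% of all tested genes were lower. There 6 of 9 bars point down, where 57.9% of all genes were negative. In the other stretch none of 7 tested genes was called, where 2.87% of all genes were called in either direction.

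The promoters of Clec4b2, Clec4b1, Clec4d and Clec4e are shown because these neighbours in the Clec4 block were all lower or apart from the controls. Sequences are from RefSeq (GRCm38.p6), from 250 bases before to 50 after the annotated start, 5′ to 3′ on the gene's strand, and capitals mark GATAA, the core bound by GATA factors, and GAGGAA, a core bound by PU.1, on either strand. They lie at chr6:123172773-123173072 (plus strand) for Clec4b2, chr6:123049712-123050011 (plus) for Clec4b1, chr6:123261857-123262156 (plus) for Clec4d and chr6:123289822-123290121 (minus) for Clec4e.
Clec4b2: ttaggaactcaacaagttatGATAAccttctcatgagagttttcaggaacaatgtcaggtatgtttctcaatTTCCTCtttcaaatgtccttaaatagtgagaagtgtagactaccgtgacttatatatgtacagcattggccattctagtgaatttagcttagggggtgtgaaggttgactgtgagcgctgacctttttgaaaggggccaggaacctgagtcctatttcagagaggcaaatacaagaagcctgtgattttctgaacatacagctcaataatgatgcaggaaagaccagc
Clec4b1: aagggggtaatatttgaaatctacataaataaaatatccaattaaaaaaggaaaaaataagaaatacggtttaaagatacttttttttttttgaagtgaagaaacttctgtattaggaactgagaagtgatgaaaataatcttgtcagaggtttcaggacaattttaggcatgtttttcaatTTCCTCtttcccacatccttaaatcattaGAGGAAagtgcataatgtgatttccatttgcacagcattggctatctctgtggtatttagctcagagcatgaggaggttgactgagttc
Clec4d: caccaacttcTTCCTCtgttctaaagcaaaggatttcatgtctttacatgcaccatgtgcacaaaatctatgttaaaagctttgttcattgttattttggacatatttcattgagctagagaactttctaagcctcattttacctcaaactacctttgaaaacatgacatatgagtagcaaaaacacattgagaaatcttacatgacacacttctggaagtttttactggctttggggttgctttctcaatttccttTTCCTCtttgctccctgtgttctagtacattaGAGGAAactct
Clec4e: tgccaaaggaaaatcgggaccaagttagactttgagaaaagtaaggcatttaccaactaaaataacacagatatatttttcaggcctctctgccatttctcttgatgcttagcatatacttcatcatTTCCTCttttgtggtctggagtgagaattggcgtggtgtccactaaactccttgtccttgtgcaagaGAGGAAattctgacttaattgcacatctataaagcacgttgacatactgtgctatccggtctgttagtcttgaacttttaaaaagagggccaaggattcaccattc

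Among these 4 promoters only that of Clec4b2 held GATAA, 230 bases before the start, and all 4 held GAGGAA. In Clec4b2 it lay 178 bases before the start, in Clec4b1 68 and 39 before, in Clec4d 240 before and 7 and 39 after, and in Clec4e 123 and 56 before. Promoters were matched for 25 of the 29 tested members, and not for Clec10a, Clec3b, Clec4a4 and Clec4n. GATAA was found in 10 of the 25 (40.0%), against 25.4% of the 32851 promoters of the table. Clec4b2 was the only called member among these 10. Members counted with a single promoter each and the table with every entry, and base composition was not matched. GAGGAA was found in 13 (52.0%), against 28.3%. The C/EBP motif TTGCNNAA was found in 5 (20.0%), against 10.8%, and the STAT6 motif TTCNNNNGAA in 4, against 7.0% of the table, each on either strand. The promoter of Clec4a3 held none of these motifs in this window, and that of Mgl2 held GAGGAA alone, 225 bases before its start.

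In the CD209 group, relatives of the human receptor DC-SIGN that bind mannose-rich glycans, none of 5 tested genes passed. Cd209a, which marks monocyte-related and type 2 dendritic cells, read 3.09, 3.36 and 3.44 on the arrays labelled knockout and 3.79, 3.89, 4.03 and 4.12 on the controls. The groups were apart by a small step, and the log2 fold change of -0.66 (SE 0.15, limma adjusted p = 0.0618) missed the threshold. A dimmer probe of Cd209a gave -0.38 with overlapping groups (adjusted p = 0.687 in the fit over all probes, where 0.522% of probes were lower and 0.838% higher). Cd209d, Cd209c, Cd209e and the related liver receptor gene Clec4g had log2 fold changes between -0.15 and 0.12, and the 2 probes of Cd209c differed in sign. Cd209e varied most within groups, from -2.59 to -1.34 on the arrays labelled knockout and from -2.61 to -1.17 on the controls. Cd209b and Cd209f, the former known from marginal zone macrophages, were not well above background on any array.

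The 3 tested members of the Dectin-1 group had small negative changes and none passed. Clec7a, which encodes Dectin-1 itself, had no matched probe and was not tested. Clec9a (DNGR-1), which senses actin of dead cells and marks type 1 conventional dendritic cells, read -1.84, -1.11 and -1.22 on the arrays labelled knockout and -0.74, -1.11, -0.96 and -1.52 on the controls. Its groups overlapped (log2 fold change -0.31, 95% interval -0.86 to 0.25, limma adjusted p = 0.647). Clec12a, an inhibitory receptor for uric acid crystals, had a log2 fold change of -0.45 (95% interval -0.90 to 0.0050, adjusted p = 0.378). Clec1b (CLEC-2), the podoplanin receptor of platelets, was -0.36 (95% interval -0.82 to 0.11, adjusted p = 0.505), and its 3 probes lay between -0.36 and -0.24. Clec12b and the endothelial gene Clec1a of the same stretch were dim.

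Clec5a (MDL-1), a receptor of monocytes and neutrophils coupled to DAP12, read -5.75, -5.69 and -5.82 on the arrays labelled knockout and -4.17, -4.92, -4.61 and -5.48 on the controls. Control replicate 4 came close to the other group, and 3 of the 4 controls were well above background. The log2 fold change of -0.96 (SE 0.28, limma adjusted p = 0.153) did not pass with all arrays, and passed without control replicate 4 (adjusted p = 0.0328, log2 fold change -1.19). It passed in 2 of 22 alternative fits, the other being that with array weights. Across them the log2 fold change ran from -1.19 to -0.57 and the limma adjusted p reached 0.423.

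The Clec2 group encodes ligands of NKR-P1 receptors on natural killer cells, and none of its 5 tested genes passed. Clec2d (Clr-b), the widely expressed ligand that restrains natural killer cells, read -2.35, -1.91 and -2.25 on the arrays labelled knockout and -1.54, -0.68, -1.41 and -1.68 on the controls. The groups were apart, with control replicate 2 the brightest array, and the log2 fold change was -0.84 (SE 0.25, limma adjusted p = 0.162). Clec2i was at 0.22, Clec2e at -0.05 and the brain gene Clec2l at 0.09, all with overlapping groups. Clec2m had the widest spread of all members among the arrays labelled knockout, from -6.88 to -3.56 on the arrays labelled knockout and from -7.86 to -5.20 on the controls, and was well above background on 2 of 3 and 1 of 4 arrays. Its log2 fold change of 0.94 had a 95% interval of -0.998 to 2.88. Clec2g and Clec2h were dim on every array.

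Family members by name that are not immune receptors also did not pass. Clec11a, a secreted growth factor of bone and blood progenitors, read -1.53, -1.39 and -1.64 on the arrays labelled knockout and -1.11, -0.87, -1.01 and -1.18 on the controls, apart but by a small step (log2 fold change -0.48, SE 0.13, limma adjusted p = 0.139). Clec14a, an endothelial membrane protein, was the single member whose arrays labelled knockout lay above every control, at -4.44, -4.66 and -4.89 against -5.09, -5.23, -5.40 and -5.18. It was above background on just 2 of the 4 controls, and the log2 fold change of 0.56 (SE 0.15, limma adjusted p = 0.120) did not pass. Clec16a, which acts in mitophagy, and Clec3b, the secreted protein tetranectin, had log2 fold changes of -0.25 and 0.19. The Kupffer cell receptor gene Clec4f and the cartilage gene Clec3a were not well above background on any array, and Clec18a was so on at most 1 array of each group.

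The signalling machinery below these receptors did not pass the test, gene by gene. Of 24 genes of the Syk and Card9 route all were tested, none rose or fell (limma), 2 were lower at an unadjusted p under 0.05, and the median log2 fold change was -0.17. Card9, the adaptor, had a log2 fold change of -0.58 (95% interval -1.45 to 0.29), with -4.11, -2.41 and -3.72 on the arrays labelled knockout and -2.72, -3.08, -3.05 and -2.49 on the controls. The kinase gene Lyn was at -0.47 (95% interval -0.90 to -0.04, adjusted p = 0.315). Singled out after their values were seen, Fcer1g, the gamma chain, was at -0.15 (95% interval -0.58 to 0.27), Syk at 0.20 (95% interval -0.14 to 0.54) and Tyrobp, which encodes DAP12, at -0.46 (95% interval -0.83 to -0.09, adjusted p = 0.241). Of 6 genes of inhibitory phosphatases and adaptors none passed and 1 was higher at an unadjusted p under 0.05. Dok2 was at 0.95 (adjusted p = 0.278) and Ptpn6, which encodes the phosphatase SHP-1, at -0.33 (adjusted p = 0.414).

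Other genes with a C-type lectin domain were listed as a further comparison. Of 29 such genes 18 were tested. In limma 1 rose and none fell, where 1.49% of all genes rose and 1.38% fell. At an unadjusted p under 0.05, 2 were higher and 4 lower, and the median was -0.09. The list also held Bst2, which has no such domain. Cd72, an inhibitory receptor of B cells, read 1.97, 1.77 and 1.96 on the arrays labelled knockout and 1.00, 1.01, 0.82 and 0.82 on the controls, a rise of 1.99-fold (0.99 ± 0.13 in log2, estimate and SE; limma adjusted p = 0.00464). This is the opposite direction to the 4 called members, but most of the list did not share it. Of the 18 tested genes 12 were negative, where 57.9% of all genes were. Asgr2, Cd302 and Vcan were at -1.03, -0.80 and -0.76 with the arrays labelled knockout below every control (8.04% of all genes do so). They did not pass (limma adjusted p = 0.0639, 0.0517 and 0.171).

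Among 14 transcription factor and cytokine receptor genes known to govern myeloid receptor expression, 2 fell and none rose. Of all tested genes 1.38% fell and 1.49% rose. At an unadjusted p under 0.05, 5 were lower and 1 was higher, and their median was -0.26. Cebpe, a factor of granule formation, fell 8.51-fold (limma adjusted p = 0.0012). Singled out after their values were seen, further genes are given as values. Cebpb and Klf4 were at -0.82 and -0.57 with groups apart (limma adjusted p = 0.146 and 0.158). Il4ra, the interleukin-4 receptor chain, was at 0.44 with the arrays labelled knockout above every control (limma adjusted p = 0.184). Stat6, which carries the interleukin-4 signal that raises MGL expression in macrophages, was at -0.23 (adjusted p = 0.493), and Irf4 and Irf8, factors of type 2 and type 1 dendritic cells, at -0.01 and -0.21 (adjusted p = 0.989 and 0.558).

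Some markers of monocytes, neutrophils, mast cells and platelets also fell, where 1.38% of all tested genes did. Of 12 tested monocyte and macrophage markers 8 fell and none rose, and their summed linear signal, in units of the array's 75th percentile, was 62.6 to 73.4 on the arrays labelled knockout and 104 to 120 on the controls. Mertk and C1qa of that list were not tested because their probes were dim. Of 15 neutrophil markers 4 fell, with sums of 167 to 233 against 237 to 275. The arrays labelled knockout differed among themselves for some uncalled neutrophil markers. On replicates 1, 2 and 3 Camp read 0.62, -3.80 and -4.42, and S100a8 read -0.18, -3.17 and -3.34. Of 9 mast cell and basophil markers 7 fell, with sums of 0.768 to 1.05 against 9.83 to 21.8, while Tpsb2 of that list had a log2 fold change of 0.15 (limma adjusted p = 0.740) and Mcpt4 was not well above background on any control. Of 9 megakaryocyte and platelet markers 3 fell, with sums of 28.5 to 35.0 against 47.2 to 76.1. The sums of the list shared by conventional dendritic cells overlapped, at 239 to 287 against 253 to 304, as did those of type 1 (98.5 to 117 against up to 115), type 2 (58.8 to 69.2 against 67.1 to 74.9) and plasmacytoid dendritic cells (160 to 194 against 179 to 213). No marker of the type 1 or plasmacytoid lists passed, and 1 of 9 type 2 markers rose and 1 fell. Xcr1, a defining marker of type 1 cells, was dim. In the other direction, 4 of 6 tested natural killer cell markers rose and none fell in limma, where 1.49% of all genes rose. Their sums overlapped, at 26.7 to 29.9 against 23.1 to 36.0. The other 2 were negative, Klrd1 at -0.58 with groups apart (limma adjusted p = 0.286) and Prf1 at -0.16, and Ncr1 and Klrb1c were dim. Of 8 T cell markers 1, Lck, rose and none fell, with sums of 11.9 to 15.9 against 9.16 to 9.67. In that list 2 were negative, Il7r at -0.32 and Cd3e at -0.05. Of 5 eosinophil markers 1 fell, and none passed among 5 B cell, 3 erythroid, 3 endothelial and 4 stromal markers. The part of these markers in the lower values of Clec10a, Clec4a3, Clec4b2 and Clec4d was not tested.

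**Figure D4:**
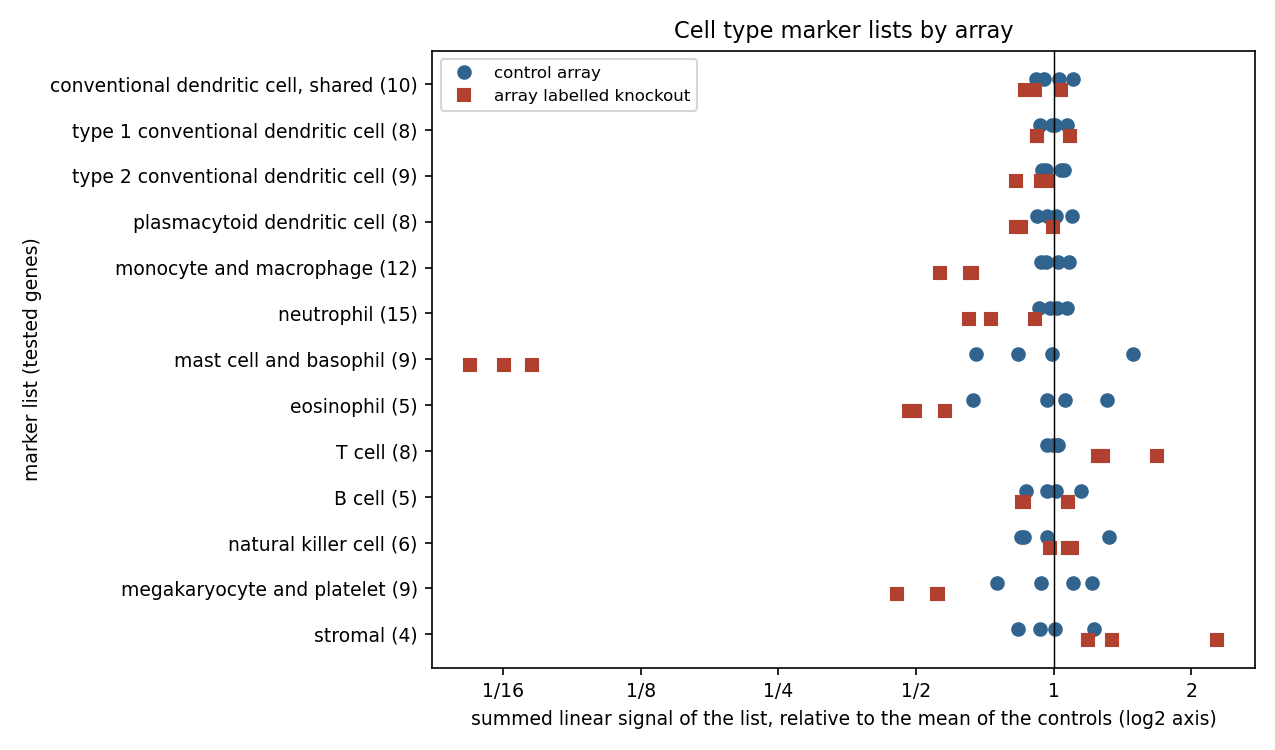
Summed linear signal of the marker lists, erythroid and endothelial left out, on every array, relative to the mean of the 4 controls, on a log2 axis; the number of tested genes stands beside each list, circles are controls and squares are arrays labelled knockout. The 3 arrays labelled knockout lie left of all controls for the monocyte and macrophage, neutrophil, mast cell and basophil, eosinophil, and megakaryocyte and platelet lists, and right of them for the T cell list.

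How firmly the 4 calls stand differs between them. That of Clec10a was kept whichever array was left out. Clec4b2 no longer passed when any of the 3 arrays labelled knockout, control 1 or control 3 was dropped. Clec4d kept its call only when control 4 was the one dropped. Clec4a3 kept its call when replicate 2 labelled knockout or control 4 was dropped, and lost it otherwise. Over the arrays left out the adjusted p ran from 0.00967 to 0.121 for Clec4b2, from 0.0141 to 0.128 for Clec4d and from 0.0331 to 0.202 for Clec4a3, while their log2 fold changes stayed within -1.36 to -1.08, -1.31 to -1.04 and -0.94 to -0.73. The number of lower members was 1 when replicate 1 or 3 of either group was dropped, 2 without control replicate 2, 3 without replicate 2 labelled knockout and 5 without control replicate 4.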

How the data were processed

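The authors deposited 1 scanner file per array, whose spot intensity came from Agilent Feature Extraction 10.7.3.1 and was already background-subtracted, per the file headers. Amplified RNA carried the dye Cy3 (per the labels' protocols). The deposited series table holds log2 values of the authors, centred per probe, with scale and centring not stated. Array differences matched those of the scanner values (slope 1), column medians were 0 except -0.02 on replicate 3 labelled knockout, and it served as an alternative.

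From the processed signal, log2 was taken, the 75th percentile of non-control spots subtracted, outlier spots left out and spots of a probe averaged. A probe was tested if at least 3 of the 7 arrays had it well above background. RefSeq accessions, without versions, named 26413 of 55681 probes (GRCm38.p6 table), or 79.9% of the 33064 that carry one, and the tested probe with the highest mean stood for its gene. Probe coordinates in the files are on mm9 and were not used.

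The group difference was fitted with limma 3.58.1 (R 4.3.3; lmFit, eBayes), with no block, and adjusted by Benjamini-Hochberg over 14552 genes (threshold 0.05). Residual degrees of freedom were 5. The fit was tested on simulated data. The number of arrays limits the precision. Members and lists were chosen with earlier results of these data known. The rule named all tested members, and from each signalling or other gene list, marker lists aside, up to 4 called genes per direction, or up to 2 as values where none passed. Other genes given with values were chosen after their values were seen. Normexp used the median signal. Protein sequences were not analysed here, and 1 called gene of the upstream factor list is not reported here.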

Additional observations from a re-analysis of the deposited data

How the results depend on the processing

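Clec10a was lower with an adjusted p under 0.05 in all 23 alternative fits, with a log2 fold change between -2.34 and -2.14. The median of the members stayed between -0.39 and -0.14, and 9 of 29 members, none of them called, turned sign in some alternative. The count of lower members, 4 of 29, was 11 of 38 without a filter, where 12.4% of all genes were lower. Cd209b, Clec2g, Clec2h, Clec3a and Clec4f, on no array well above background, were among these 11. Negative control spots were dimmer on the arrays labelled knockout (medians -9.06 to -8.31) than on controls (-7.70 to -7.39). The count of lower members was 11 with array weights, where 5.65% of all genes were lower. It was 1 with the common floor, with every tested probe a feature, with the replicate block and with adjusted p under 0.01. Arrays left out in turn gave 1 to 5. Clec4e passed in 9 of 23 alternatives.

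Over all genes, 217 were higher and 201 lower. These were 365 and 2483 without a filter, 699 and 822 with array weights, 84 and 94 with the replicate block, 108 and 96 at 0.01, 195 and 283 with normexp (40.8% of calls higher) and 224 and 311 with each array's own floor (41.9% higher). Arrays left out gave 88 to 225 higher and 105 to 178 lower. Other lectin domain genes, none lower, had 6 lower without a filter, 4 with array weights, 2 with normexp, the own floor or probes above background on all 7 arrays, 1 with quantile or all-array percentile scaling, the series table, trend and robust or the mean of probes, and 0 to 1 with arrays left out. The count of higher ones, 1, was 0 with the block. The Syk and Card9 list had 2 lower with array weights. The cause was not tested.

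Arrays of the same replicate number had correlations of deviations from their group means of -0.10, -0.17 and -0.05. With so few arrays these cannot exclude that the numbers pair the arrays. The main fit used no block, and the block is given here alone. Naming probes by accession alone was already the main setting. On some arrays the probes of Clec2m, Clec4a2, Clec5a, Clec14a and Clec2l were not well above background.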
